A study of Mus musculus with 18 samples.

Results

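In the table of transcript models assembled from gonadal adipose of young male mice, 5564 of 30867 loci carried neither a gene name nor a strand in any of their models. These unstranded unnamed loci were taken by that rule alone, without use of their levels. A locus spanned all of its models, and its level was their summed FPKM, a read density scaled to transcript length and library size, in each of 6 adipose columns. Nearly all of them, 5535, were single models. The same table held 1488 unnamed loci that do have a strand, which are given beside them below. By the same rule hypothalamus had 3323 of its 28445 loci and liver had 2004 of its 26694.

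The animals were C57BL/6 males aged 3 weeks. Their mothers received bisphenol A (BPA), a chemical of plastics with oestrogenic activity, at 5 mg/kg/day by gavage in corn oil daily over 1 to 20 days post conception, and control mothers received the oil only. Adipose, hypothalamus and liver each gave 3 samples from BPA offspring and 3 from corn oil offspring, drawn from 4 BPA and 3 corn oil litters. The adipose columns are headed adipose03, adipose10, adipose15, adipose25, adipose41 and adipose42, numbers that occur in no sample label, so no column could be tied to a treatment and BPA was not compared with corn oil.

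A genome-guided assembler builds a transcript model wherever reads pile up. In a library that does not keep the strand, it learns the direction of a model from reads that span a splice junction, so a model without strand is usually an unspliced block of reads. Such blocks can come from intronless copies of genes, small RNA genes, or stretches of a transcript beyond its annotated ends. Processed pseudogenes, or retrocopies, are intronless copies of a messenger RNA that were pasted back into the genome, and the genes of ribosomal proteins have left many of them.

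Sequences were taken from GENCODE transcripts of mm10 for the members that carried the highest levels. The highest of all held a small nuclear RNA gene, Gm23971. Its transcript is identical over 191 bases to that of Rnu2-10, the U2 RNA of the spliceosome, and to those of Gm23849 and Gm24950. Reads that lie within these 191 bases cannot be placed among them. The locus spans 584 bases, and its remainder was not compared. The uneven member XLOC_023313 held 94 of the 102 bases of Rny3, a Y RNA, one of the small noncoding RNAs bound by the Ro60 protein. Both are printed whole as far as the locus covers them, in the direction of the annotated gene.
Gm23971 in XLOC_005411, chr11:101645347-101645930, minus strand: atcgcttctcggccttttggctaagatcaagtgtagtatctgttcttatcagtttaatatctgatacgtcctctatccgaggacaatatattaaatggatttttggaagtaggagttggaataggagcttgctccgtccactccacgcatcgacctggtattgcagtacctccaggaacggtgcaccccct
Rny3 in XLOC_023313, chr6:47781632-47781840, plus strand: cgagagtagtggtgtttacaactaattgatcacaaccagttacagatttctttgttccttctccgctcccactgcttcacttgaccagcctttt

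Retrocopies made up most of the other high members, and 4 of them are shown over 150 bases beside the coding sequence of the gene they derive from. Each is read in the direction of its gene, and capitals mark the bases at which the copy differs from its parent. The windows were placed where the copy differs most, and they show how few letters separate a read of the copy from a read of the parent.
Rpl23a-ps3 in XLOC_008722, chr14:34170643-34171186: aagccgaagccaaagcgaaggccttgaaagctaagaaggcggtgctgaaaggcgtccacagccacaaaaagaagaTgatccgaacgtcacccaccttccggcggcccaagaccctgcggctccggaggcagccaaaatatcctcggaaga
Rpl23a, chr11, minus strand: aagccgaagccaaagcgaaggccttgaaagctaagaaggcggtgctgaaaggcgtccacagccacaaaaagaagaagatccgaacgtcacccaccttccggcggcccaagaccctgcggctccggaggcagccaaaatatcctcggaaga
Gm4294 in XLOC_006349, chr12:12023001-12023708: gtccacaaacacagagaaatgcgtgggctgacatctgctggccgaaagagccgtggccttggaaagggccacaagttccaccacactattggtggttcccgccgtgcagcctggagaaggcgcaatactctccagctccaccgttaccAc
Rpl15, chr14, minus strand: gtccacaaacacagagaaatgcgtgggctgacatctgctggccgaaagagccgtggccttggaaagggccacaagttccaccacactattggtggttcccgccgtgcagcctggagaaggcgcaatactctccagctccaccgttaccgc
Rps10-ps2 in XLOC_010828, chr16:20822097-20822675: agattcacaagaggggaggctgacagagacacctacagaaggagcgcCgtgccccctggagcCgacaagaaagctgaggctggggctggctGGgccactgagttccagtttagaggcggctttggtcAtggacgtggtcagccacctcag
Rps10, chr17, minus strand: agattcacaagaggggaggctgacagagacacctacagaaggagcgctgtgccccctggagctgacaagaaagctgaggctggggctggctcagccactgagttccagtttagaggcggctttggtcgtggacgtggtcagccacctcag
Gm9512 in XLOC_007519, chr13:15118406-15118934: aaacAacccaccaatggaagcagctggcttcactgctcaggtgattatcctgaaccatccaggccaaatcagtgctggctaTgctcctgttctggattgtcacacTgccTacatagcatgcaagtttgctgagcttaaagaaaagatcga
Eef1a1, chr9, minus strand: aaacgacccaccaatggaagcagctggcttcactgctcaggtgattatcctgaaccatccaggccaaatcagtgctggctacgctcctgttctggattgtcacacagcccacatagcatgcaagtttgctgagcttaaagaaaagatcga

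Members lay on every autosome and on both sex chromosomes, with 492 on chromosome 4, 432 on chromosome 6 and 3 on Y. Their lengths ran from 201 to 13812 bases with a median of 416, against a median of 1824 bases for stranded unnamed loci. Of the 5564, 2736 (49.2%, Wilson 95% interval 47.9 to 50.5) lay outside every GENCODE gene. A further 1224 (22.0%) lay inside a gene without touching an exon, and 1604 (28.8%) met at least 1 base of an annotated exon. Of stranded unnamed loci, 29.8% lay outside genes, 5.39% inside without an exon and 64.8% on an exon. These shares depended on the overlap asked for, and the differing lengths were not matched. When at least 50% of the locus had to overlap, 22.6% of members and 23.5% of stranded unnamed loci were on an exon. Inside a gene lay 24.4% and 35.3%, and outside genes 53.0% and 41.2%. Windows around annotated starts, from 250 bases before to 50 after in RefSeq, were met by 6.49% of members and by 25.6% of stranded unnamed loci. All intervals given here cover counting error over loci only.

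Most members outside genes were still close to one, as were most stranded unnamed loci outside genes. Of the 2736, 1694 (61.9%) lay within 5 kb of an annotated gene, and 114 (4.17%) lay more than 50 kb from any. For stranded unnamed loci outside genes these shares were 63.0% and 3.39%. Within 1 kb lay 23.9% of the members outside genes and 40.6% of such stranded unnamed loci. Of the 1694 close ones, 866 (51.1%, interval 48.7 to 53.5) were on the downstream side, against 116 of 279 (41.6%, interval 35.9 to 47.4) for stranded unnamed loci.

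The typical member had a low level. The median over members of their median FPKM was 0.191, and 95% of them lay below 1.44 FPKM. A level above 0 in all 6 columns was listed for 2796 members (50.3%), while 54 were listed at 0 throughout. At 1 FPKM or more in every column there were 263 members, 4.73% of the total. The deposited values come without read counts, but the product of FPKM and length in kilobases had a most frequent value in each column, between 0.0223 and 0.0276, at which 124 to 178 members stood exactly to 4 decimals. In units of that step the median member held 2.93 to 3.78 steps in the 6 columns. Between 35.4% and 38.9% of the products under 5 steps lay within 0.03 steps of a multiple of 0.5 steps, so most values were not whole and no read counts were taken from them.

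**Figure D1:**
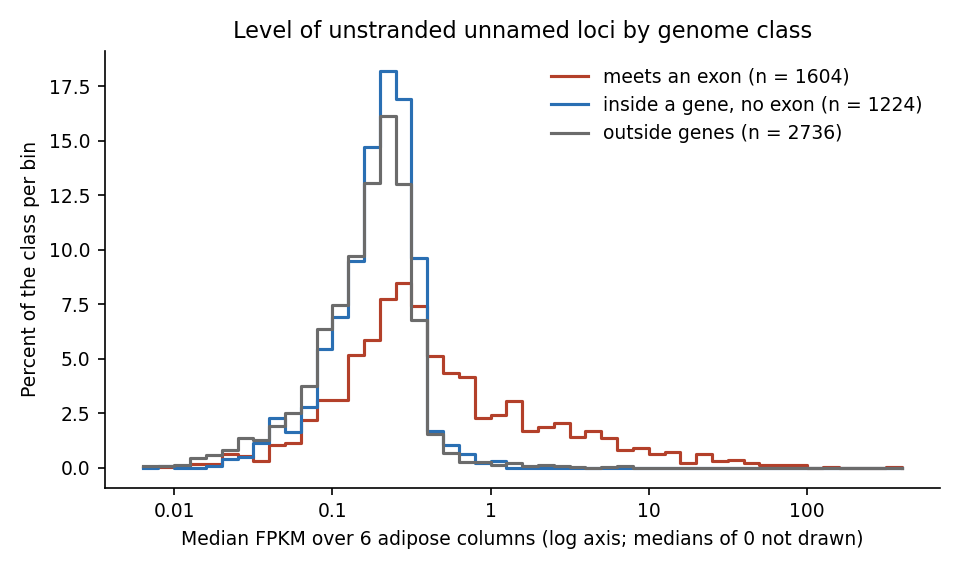
Median FPKM over the 6 adipose columns (log axis) against the percent of each genome class per bin, for members that meet an exon, lie inside a gene without one, or lie outside genes. The inside and outside curves peak together between 0.1 and 0.4 FPKM, and the curve of exon-meeting members has a long tail past 10 FPKM.

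Which members stood high depended on the class. Members that met an exon had a median of 0.271 FPKM and an upper quartile of 0.719, and all 59 members with a median of 10 FPKM or more were among them. Members inside a gene without an exon had a median of 0.197 FPKM, and the highest of their medians over columns was 1.14. Members outside genes had a median of 0.166 FPKM, and the highest of their medians was 7.81.

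Within each column, the mean log2(FPKM + 0.1) was compared between classes over the 6 columns by an exact two-sided sign-flip permutation test, whose smallest possible p is 0.03125, with Benjamini-Hochberg adjustment over 4 such contrasts. Columns are the units of error here, and nothing in the labels says more than that they are separate samples of 1 tissue. The same loci were averaged in each column, so the SD and p do not cover the spread between loci. Exon-meeting members averaged -1.01 and outside members -1.95 on that log2 scale, a difference of 0.94 ± 0.09 (SD over columns) that was positive in 6 of 6 columns (adjusted p = 0.0417, exact permutation). Members inside a gene without an exon averaged -1.83 and outside members -1.95, a difference of 0.12 ± 0.06 in 6 of 6 columns (adjusted p = 0.0417, exact permutation). That second difference was 0.02 with a pseudocount of 1 (adjusted p = 0.0625, exact permutation). When at least 50% of the locus had to overlap, neither adjusted p passed. Exon-meeting minus outside members stayed near the main value at 0.92 (adjusted p = 0.0625, exact permutation). Inside minus outside members fell to 0.06 (adjusted p = 0.0938, exact permutation). The adjustment over the 4 contrasts was redone there with the larger p of the inside contrast, which raised the adjusted p of the exon contrast. Without loci on processed pseudogenes, an alternative added after the data were seen, the first difference was 0.16 (adjusted p = 0.0417, exact permutation), so most of the 0.94 went with those loci.

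The highest member was the U2 locus on chromosome 11. Its FPKM ran from 201 in adipose42 to 1060 in adipose03 with a median of 355, and adipose41 was the other high column at 910. Adipose03 and adipose41 stood apart from the other columns, which all lay at or below 360 FPKM. No unnamed locus of hypothalamus or liver overlapped it. Whether a named locus of those tissues did is not given here. The libraries were made from polyadenylated RNA, a class to which U2 RNA does not belong.

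The Y RNA locus Rny3 varied over a wider range. Its FPKM was lowest in adipose42 at 4.41, had a median of 26.8 and was highest in adipose41 at 104, followed by 53.1 in adipose03. The highest value was 3.89 times the median. In all, 8 members met an snRNA gene by the same annotation, 4 a snoRNA gene and 11 a microRNA gene. Among the other snRNA loci, the one over Gm22973 on chromosome 12 ran from 2.34 FPKM in adipose42 to 15.3 in adipose03.

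The other members described among the 8 highest were copies of ribosomal protein genes and of Gpx4. Rpl23a-ps3 on chromosome 14, a copy of a large subunit protein gene with 1 mismatch over 468 bases, ran from 78.8 to 152 FPKM. Gm10076 on chromosome 14, annotated as a lincRNA and 99.5% identical to Rpl41, ran from 74.97 to 205 FPKM. Gpx4-ps2 on chromosome 10 copies the gene of glutathione peroxidase 4, which reduces lipid peroxides in membranes. It ran from 57.4 to 103 FPKM, and adipose41 alone was above 70.1. Gm4294 on chromosome 12, a copy of Rpl15, ran from 49.8 to 128 FPKM. Rpl17-ps10 on chromosome 7 ran from 46.5 to 133 FPKM, and Rpl17-ps5 on chromosome 5 from 41.3 to 119. In 6 of these 7 members, the U2 locus included, adipose03 and adipose41 were the highest columns, and the exception was Gpx4-ps2.

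**Figure D2:**
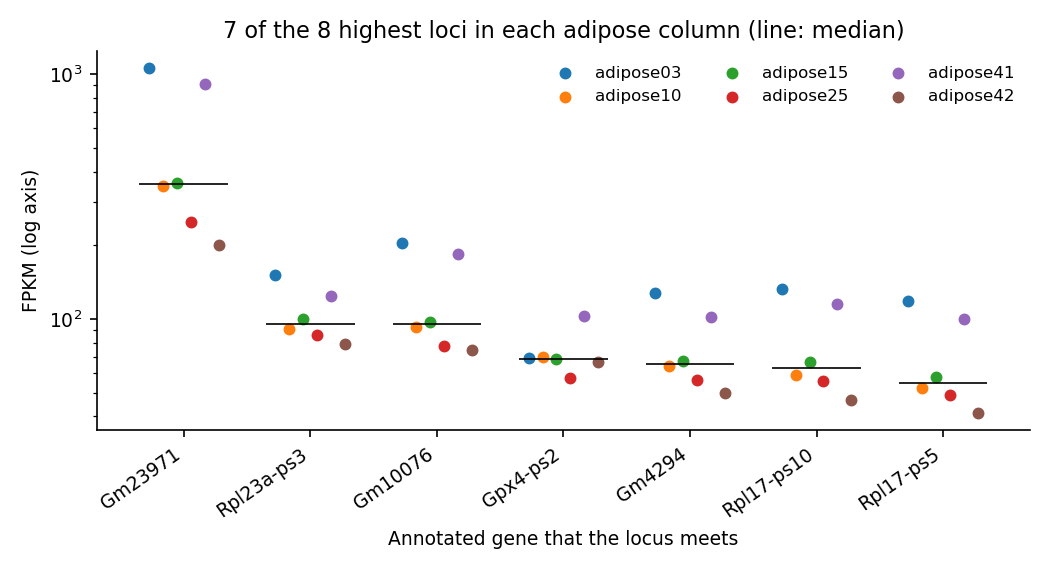
FPKM (log axis) of 7 of the 8 highest members in each adipose column, with the median as a line and the annotated gene under each. Adipose03 and adipose41 lie on top for each locus except Gpx4-ps2, where adipose41 alone stands out at 103 FPKM.

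Processed pseudogenes accounted for most of the members with appreciable level. An exon of a processed pseudogene was met by 843 members (15.2%, against 14% of stranded unnamed loci), and it was the gene with the largest overlap for 832. These 832 were 299 of the 365 members with a median of 1 FPKM or more (81.9%, interval 77.6 to 85.5) and 51 of the 59 at 10 FPKM or more (86.4%, interval 75.5 to 93.0). Of the other 8 members at 10 FPKM or more, 6 also aligned to a coding gene elsewhere, among them Gm26825, a lincRNA 99.6% identical to Hspa8, and Gm11361, 99.2% identical to Rps18. The last 2 were the U2 and Y RNA loci. In all, 743 of 10236 annotated processed pseudogenes (7.26%) were met.

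The stretches of 798 of the 832 aligned over at least 100 bases to a protein-coding transcript elsewhere, from 457 different parent genes. Ribosomal protein genes were the parents of 189 (23.7%, interval 20.9 to 26.8), close to their 25.3% among all aligned processed pseudogenes of the annotation (interval 24.4 to 26.2). Among members at 10 FPKM or more they were the parents of 32 of 51 (62.7%, interval 49.0 to 74.7). The ribosomal protein gene Rps3a1, the parent of 4 loci, was missed by the name pattern used. It is left out of the ribosomal protein counts and sums given here. Translation factor genes were the parents of 27. A pseudogene split over several loci counts once for each locus. The parent with most loci among the members was Rps2 with 19, followed by Rpl21 with 13, and by Rpl7a and Hmgb1 with 12 each. Levels within such a family spread widely. The 12 loci on copies of Hmgb1, a chromatin protein gene, ran from 0 to 9.82 FPKM (Hmgb1-ps2) although each was at least 97.6% identical to the parent.

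Most copies stood below their parent. Of 781 copies whose parent is named in the table, 708 had a lower median FPKM than the parent and 69 a higher one. Of those 69, 49 had a parent with a median of 0. Among the 51 copies at 10 FPKM or more, 10 exceeded the parent, and they included all 3 Rpl17 copies at that level. Rpl17-ps10 had a median of 62.8 FPKM, against 3.60 for Rpl17 itself. Rpl17-ps5 had 54.9 and Rpl17-ps3 had 32.9 FPKM. The other 3 Rpl17 copies had 0.266 FPKM or less. Rpl23a-ps3 had a median of 95.5 FPKM, against 42.9 for Rpl23a, and Gm4294 had 65.7, against 46.1 for Rpl15.

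The parents listed at 0 included genes that every cell uses. Gm9512, a copy of the translation elongation factor gene Eef1a1, ran from 34.7 to 83.3 FPKM. The gene Eef1a1 itself was listed at 0 in 5 columns and at 707 FPKM in adipose41. Gapdh, the glycolytic enzyme, was listed at 0 in all 6 columns, and the 11 loci on its copies had between 0.0337 and 0.282 FPKM. A copy and its parent that differ at so few bases share reads, and how the submitters' processing divided such reads is not given in the sources used here. The level of any single copy named here is therefore uncertain.

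Identity to the parent went with level only loosely. The 545 copies at 98% identity or more had a median of 0.708 FPKM, the 196 at 95 to 98% had 0.550, and the 35 at 90 to 95% had 0.310. The 12 copies at 85 to 90% had a median of 0.0948 FPKM and the 10 below 85% had 0.136, and none of these reached 1 FPKM. Across the 798 copies, which share libraries and often a parent, Spearman's rho between level and identity was 0.197. Over the 781 with a parent level it was 0.212 between the 2 levels.

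**Figure D3:**
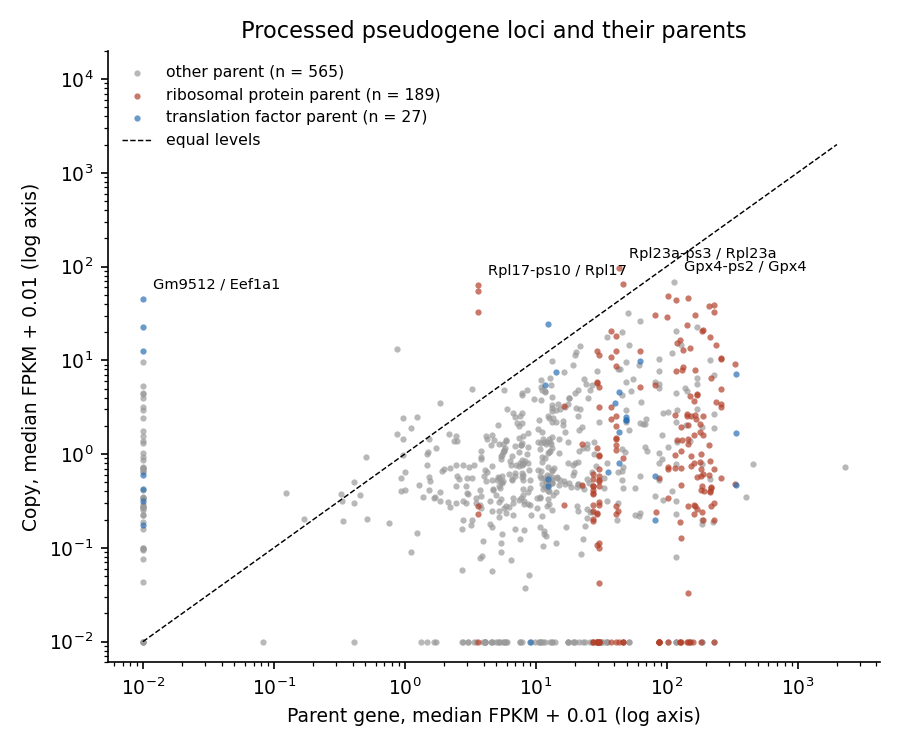
Median FPKM of each processed pseudogene locus against that of its parent gene (both log axes, 0.01 added), coloured by the kind of parent. Most of the 781 points lie under the dashed line of equal levels, while 3 Rpl17 copies and the Eef1a1 copies lie far above it.

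Between columns, the summed FPKM of the members was 6282 in adipose03, 5610 in adipose41 and between 3629 and 4299 in the other 4. This was 2.89% and 2.69% of all summed FPKM in those columns and 2.13% to 2.26% in the others. The difference lay in the exon-meeting members, with sums from 2680 in adipose42 to 5269 in adipose03. Among these, the U2 locus alone had 1060 FPKM in adipose03 and 910 in adipose41, against 201 to 360 in the others. Members that met a processed pseudogene summed to 3391 FPKM in adipose03, 3072 in adipose41 and 2015 to 2511 in the others. Members inside genes without an exon summed to 248 to 321 FPKM and members outside genes to 594 to 692, with adipose41 at or near the low end of both. Copies of ribosomal protein genes summed to 1954 FPKM in adipose03, 1638 in adipose41 and 876 to 1188 in the others. The 83 named ribosomal protein genes followed the same order of columns, with 21811 in adipose03, 17754 in adipose41 and 9229 to 12393 in the others. Copies and these genes share reads, so the sums of copies and of genes are not independent.

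The same columns carried RNA of another tissue. The summed level of 14 epididymis and gonad markers was 3976 FPKM in adipose03, 3230 in adipose41 and 991 in adipose10, and at most 0.513 in adipose15, adipose25 and adipose42. Gpx5, a secreted epididymal glutathione peroxidase, had 1039 and 1252 FPKM in adipose03 and adipose41. None of the 14 was above 0 in all columns, and Dazl, Insl3 and Star were listed at 0 in all of them. The 10 adipocyte markers summed to 9016 to 17942 FPKM, lowest in adipose03, and 9 were above 0 in every column. The 4 mesothelium markers, from the lining of the fat pad, summed to 33.0 FPKM in adipose03 and 43.1 in adipose41, and to 7.14 to 17.9 in the others. The 2 macrophage markers in the table summed to 23.9 FPKM in adipose03 and to 2.37 to 5.33 elsewhere. That excess was in Csf1r alone, listed at 18.6 FPKM in adipose03 and at 0 in the other columns. Cd68 had 5.30 FPKM in adipose03 and 2.37 to 5.33 elsewhere. The 2 blood markers summed to 468 to 1897 FPKM, highest in adipose15. Skeletal muscle markers summed to 2.43 to 21.2 FPKM, hepatocyte markers to 12.3 to 44.9, and both neuronal markers were listed at 0. The part of the epididymal, mesothelial and macrophage RNA in the column differences was not tested, and in whole tissue more cells of a type cannot be told apart from more RNA per cell.

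Over the columns the median member varied less than the median stranded unnamed locus. Members had a median of 0.230, 0.229 and 0.185 FPKM in adipose03, adipose10 and adipose41, where stranded unnamed loci had 0.384, 0.248 and 0.316. In adipose15, adipose25 and adipose42 members had 0.188, 0.197 and 0.217 FPKM, and stranded unnamed loci 0.0956, 0.147 and 0.0853. On the mean log2 scale the members were 0.51, 0.18 and 0.46 below stranded unnamed loci in the first 3 columns, and the difference lay between -0.08 and 0.08 in the other 3. Over all 6 columns, members averaged -1.66 and stranded unnamed loci -1.45, a difference of -0.20 ± 0.24 that did not pass the test (adjusted p = 0.0938, exact permutation).

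**Figure D4:**
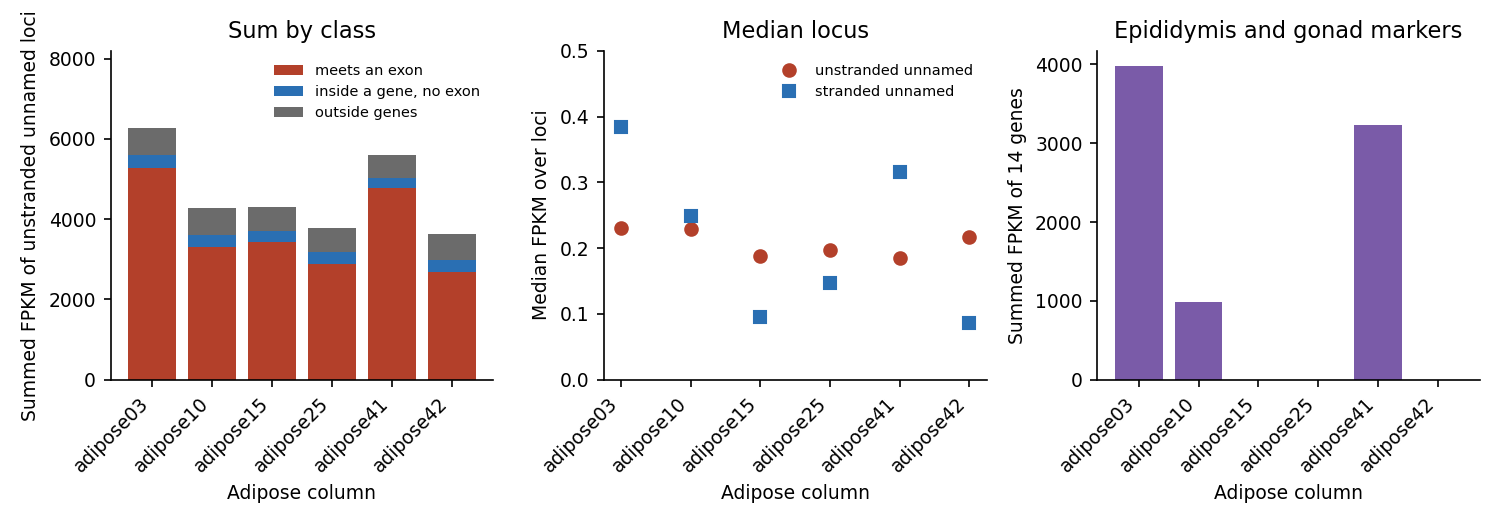
Left, summed FPKM of members in each adipose column, stacked by genome class; middle, median FPKM over members (circles) and over stranded unnamed loci (squares); right, summed FPKM of 14 epididymis and gonad markers. The member sum is highest in adipose03 (6282) and adipose41 (5610). The squares are higher in the 3 columns with marker signal than in the others. The circles are highest in adipose03 and adipose10 and lowest in adipose41.

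Levels repeated between columns mainly for exon-meeting members. Over the 15 pairs of columns, Spearman's rho across loci ran from 0.549 to 0.657 for members that met an exon, from 0.0452 to 0.287 for members inside genes without an exon, and from 0.0442 to 0.330 for members outside genes. The last 2 classes span a narrow range of low levels, and the correlations are descriptions over loci that share a library. The SD of log2(FPKM + 0.1) over columns had a median of 1.02 for the 1475 members under 0.1 FPKM and of 0.379 for the 59 members at 10 FPKM or more.

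The most uneven members at appreciable level were mainly copies. Rpl5-ps2 had 5.71 FPKM in adipose03, 4.87 in adipose41 and 2.12 in adipose42 and was listed at 0 in the other 3 columns. Gm7931, a copy of the chromatin protein gene Hmgn2, had 4.26 FPKM in adipose03, 4.76 in adipose41 and 2.68 in adipose42 and was likewise listed at 0 in the same 3. The locus over Gm10874 and the retrocopy Got2-ps1 was listed at 0 in adipose03, had 1.29 to 2.26 FPKM in 3 columns, and 6.95 and 7.34 in adipose10 and adipose41. The copy of Rps26, Gm7392, ran from 0.828 FPKM in adipose42 to 5.49 in adipose03. These 4 and Rny3 had the largest ratios of highest to median column among members with a median of at least 1 FPKM.

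Members with a counterpart in another tissue stood higher in adipose than those without. An unnamed locus of hypothalamus or liver overlapped 1563 members (28.1%, interval 26.9 to 29.3), 766 of them in both tissues, against 42% of stranded unnamed loci. The share was 61.0% for members on an exon, 10.5% for those inside genes without one and 16.7% for those outside genes. Members with such an overlap averaged -0.92 and those without -1.94 on the log2 scale in adipose, a difference of 1.03 ± 0.10 in 6 of 6 columns (adjusted p = 0.0417, exact permutation). As for the other contrasts, the SD and p cover columns and not the spread between loci. Without loci on processed pseudogenes, an alternative chosen after seeing the data, the difference was 0.30 (adjusted p = 0.0417, exact permutation).

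Copies kept their place in other tissues to different degrees. Rpl17-ps10 had a median of 62.8 FPKM in adipose, 101 in hypothalamus and 93.9 in liver, in tables normalised separately. Rpl23a-ps3 had 95.5, 70.6 and 73.0. Gm4294 had 65.7 FPKM in adipose and 57.5 in liver, while its overlapping hypothalamus locus was listed at a median of 0.

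Of the 5 highest members outside genes that recurred in both other tissues, 3 sat beside retrocopies. XLOC_030736 on X (146176614-146177074) lay 37 bases downstream of Hmgb1-ps2 and ran from 4.46 to 6.28 FPKM. XLOC_010889 on chromosome 16 (51362165-51362420), 32 bases downstream of the Eef1a1 copy Gm6767, was listed at 0 in adipose10 and reached 5.60 FPKM in adipose03. XLOC_013975 on chromosome 19 (6592116-6592544), 58 bases downstream of Hmgb1-ps4, ran from 2.02 to 2.62 FPKM. Of the other 2, XLOC_006502 on chromosome 12 (108714199-108714791) lay 7057 bases downstream of Gm23872 and XLOC_003297 on chromosome 10 (129664989-129665382) lay 1607 bases downstream of the olfactory receptor gene Olfr801. They had medians of 3.63 and 2.75 FPKM. Among all 24 outside members with a median of 1 FPKM or more, the nearest gene was a processed pseudogene for 15 (62.5%, interval 42.7 to 78.8), at a median distance of 347 bases to the nearest gene of any kind. Among the 2712 below 1 FPKM it was a processed pseudogene for 269 (9.92%) and a protein-coding gene for 1756 (64.7%).

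Inside genes without an exon, 4 members had a median of 1 FPKM or more. They lay in Gm45904 (1.14 FPKM), Nrg1 (1.07), Gm44511 (1.02) and Maml2 (1.00), and the next was a locus of 7378 bases in Bach2 (0.973). The Nrg1 member varied most, listed at 0 in adipose10 and adipose41 and at 3.07 FPKM in adipose03. The Maml2 member, 2648 bases in the gene of a Notch coactivator, was the steadiest of them, with 0.759 to 1.12 FPKM. The 1224 members of this class fell in 488 host genes, 302 of which held a single member and 54 held 5 or more.

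Part of the members gathered in runs along the chromosome, many of them inside introns of a single gene. With neighbours at most 25 kb apart, a spacing chosen after the data were seen, 38 runs held 10 or more members, 755 in all (13.6%), and the longest held 68. The longest run of the less numerous stranded unnamed loci (1485 on the same chromosomes) had 7. With gaps of at most 10 kb there were 31 runs of 10 or more members, and with 50 kb there were 46. Of the 755 members in runs, 440 lay inside a gene without an exon, 265 outside genes and 50 on an exon.

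The longest run lay in introns of Sox5, the gene of an SRY-box transcription factor, on chromosome 6 (144234720-144431769). Its 68 members covered 40.2% of 197 kb, 66 of them were above 0 in all 6 columns, and their medians ran from 0.118 to 0.793 FPKM. The length-weighted mean level was lowest in adipose25 at 0.315 FPKM and highest in adipose15 at 0.487. Sox5 itself, over its 8 named models, was listed at 0 in 3 columns and at 0.464 FPKM or less in the others. A second run of 29 members lay further along in the same gene, and another held 17, so that 111 members lay inside Sox5 without an exon. No unnamed locus of hypothalamus or liver overlapped the first 2 of these runs.

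**Figure D5:**
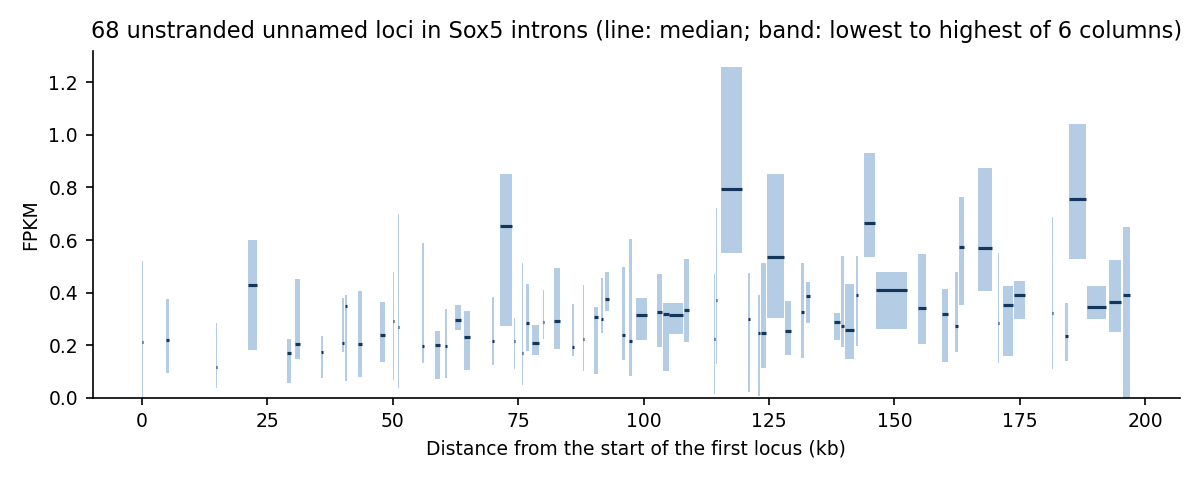
Level (FPKM) of the 68 members of the longest run against distance in kb from the start of the first member. Each dark line is the median over 6 adipose columns and each band runs from the lowest to the highest column. Most medians lie between 0.2 and 0.4 FPKM along the whole 197 kb.

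Other long runs differed in which column stood highest. In Bach2, the gene of a transcriptional repressor of lymphocytes, 43 members covered 21.7% of 172 kb on chromosome 4 (32239455-32411458), with weighted means from 0.368 FPKM in adipose15 to 0.577 in adipose03. A run of 46 members on chromosome 8 (115447699-115680450) was mostly outside genes and ended 2492 bases from Maf, a bZIP transcription factor gene. It was highest in adipose25 at 0.361 FPKM, and the other columns had 0.184 to 0.273. On chromosome 4 (142341463-142476137), 41 members spread over 135 kb with 0.453 FPKM in adipose03 and 0.371 in adipose41, and 0.180 to 0.257 elsewhere. A run of 21 members covered 69.5% of 58.8 kb inside Stox2 on chromosome 8 (47353587-47412343), from 0.115 FPKM in adipose41 to 0.436 in adipose25. Inside Mecom, 19 members ran from 0.113 FPKM in adipose41 to 0.351 in adipose25, and 21 inside Tshz2 from 0.208 in adipose41 to 0.342 in adipose03. Over the 38 runs the highest column was adipose03 in 10, adipose25 in 8, adipose42 in 7, adipose10 in 6, adipose15 in 4 and adipose41 in 3.

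Members of runs seldom overlapped an unnamed locus of the other tissues. Named loci of those tissues, which overlapped 19.8% of all members in hypothalamus and 9.51% in liver, were not counted by run. An unnamed locus of hypothalamus or liver overlapped 24 of the 755 (3.18%, interval 2.14 to 4.69), against 1539 of the 4809 other members (32.0%, interval 30.7 to 33.3). Among members that met no exon the shares were 17 of 705 in runs (2.41%) and 568 of 3255 elsewhere (17.5%). Their levels were not lower, with a median of 0.222 FPKM in runs and 0.165 elsewhere for members that met no exon. The run in which most members were shared held 13 in and near Gm29683 on chromosome 7, beside Nr2f2, and 8 of them overlapped an unnamed hypothalamus locus.

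The 5 longest members had medians of 0 to 0.880 FPKM. All but XLOC_003090 stood above 0.293 FPKM, the upper quartile over members. XLOC_003090 on chromosome 10 (29296524-29310335), 13812 bases over the antisense gene Gm46218, was listed at 0 in 5 columns and at 0.4998 FPKM in adipose10. XLOC_016475 and XLOC_016477 on chromosome 2 (136654812-136665945 and 136666678-136676619), upstream of Gm36967, formed a nearly continuous stretch. The first had 0.193 FPKM in adipose41 and up to 0.820 in adipose10, and the second 0.290 in adipose41 and up to 1.24 in adipose25. XLOC_023276 on chromosome 6, over Gm42548, had 0.303 to 0.444 FPKM. XLOC_014094 on chromosome 19, outside genes, was listed at 0 in adipose41 and at 0.602 FPKM in adipose15.

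Hypothalamus and liver gave unstranded unnamed loci of the same kind in smaller number. In adipose they carried 2.13% to 2.89% of the summed FPKM, in hypothalamus 1.37% to 1.48% and in liver 1.02% to 1.17%. Their median lengths were 416, 475 and 442 bases in that order of tissues. Each tissue was assembled and normalised apart, so these values were not tested against each other.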

How the data were processed

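Total RNA of 18 samples was poly-A selected and sequenced, per the labels' protocols. Reads were aligned to mm10 with HISAT 0.1.6 and models built with StringTie 1.0.4, per the submitters' processing notes. The annotation, the merging of assemblies and the strandedness of libraries are not stated in these sources. The deposited tables hold FPKM per transcript model or gene, made by the authors without read counts, so depth per sample is unknown. Of the 6 tables, the 3 transcript tables and the adipose gene table were used. For members with 1 model, 33209 values equalled the gene table's to within 1e-06. Of the adipose cells, 13 were not numeric and were treated as missing, 1 of them in a member.

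Loci were classed against GENCODE M21 (mm10) by overlap of at least 1 base. File coordinates were 1-based: 11171 spans equalled a RefSeq gene as written and 11 after adding 1 to the start. Stretches of annotated transcripts inside members were aligned with blastn 2.17.0 (word size 16, expect value 1e-10, at least 100 bases) to protein-coding transcripts elsewhere, leaving out predicted names as parents. Levels were compared as mean log2(FPKM + 0.1) by exact sign-flip permutation over the 6 columns. Regions named are the 8 highest, and 5 each of the longest, the most uneven at 1 FPKM or more, the highest shared outside genes, and the highest inside genes. Of the 8 highest, 1 is not reported here. Other members named as copies or runs were chosen after their values were seen. The members and lists were chosen with earlier results of these data known. The contrast was tested on simulated data. GC content, repeats and A-runs were not analysed here, since no genome sequence was used.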

Additional observations from a re-analysis of the deposited data

Results flagged for a closer look

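Among 59 groups of 6 column values examined, 3 held a column far from the rest, measured as the gap to the nearest column over the whole range. Chance alone would mark about 1 group in 20, and 3 of 59 is about that share. For Gpx4-ps2 (XLOC_003123, chromosome 10) the ratio was 0.72, from adipose41 at 103 FPKM above the other 5 columns at 57.4 to 70.1. The named gene Gpx4 was also highest in adipose41, at 181 FPKM, against 93.5 to 126 in the other columns. For the longest member (XLOC_003090, chromosome 10) the ratio was 1, since only adipose10 had a value, 0.4998 FPKM. The summed level of stranded unnamed loci had a ratio of 0.742, from 6950 FPKM in adipose03 above 4984 to 5492 in the other columns.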

How the results depend on the processing

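No paired analysis was possible because the heading numbers, some of them shared between tissues, occur in no label; the class contrasts were taken within each column. Of 40 results under another setting, 25 were counted as kept. For contrasts this meant the same direction and the same side of the threshold of 0.05, whatever the size. Without loci on processed pseudogenes, exon-meeting minus outside members fell from 0.94 to 0.16. The difference by overlap with another tissue fell from 1.03 to 0.30. The count of members at the minimum level in all 6 columns was also counted as kept, with 363 at 0.5 FPKM, against 263 at 1 FPKM. That count moved to 1594 at 0.1 FPKM and 2796 above 0. The difference between unstranded and stranded unnamed loci, -0.20 with no call, turned to 0.18 with a pseudocount of 0.01 and to 0.069 with the median over loci, and passed at -0.21 with a pseudocount of 1 and at -0.38 for loci of at least 0.1 FPKM (adjusted p = 0.0312 for the last, exact permutation; range over alternatives 0.0312 to 0.75). The cause was not tested. Members inside genes without an exon minus members outside lost the call at 0.017 with a pseudocount of 1 and at 0.061 when at least 50% of the locus had to overlap. Under that overlap, exon-meeting minus outside members was 0.92 and missed the adjusted threshold. The classes then held 22.6% on an exon, 24.4% inside a gene and 53.0% outside. With reciprocal overlap of at least 50%, 17.8% of members matched an unnamed locus of another tissue. Within 1 kb of a gene lay 23.9% of outside members, and within 10 kb 76.6%. FPKM tables give no depth from which to set a floor.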
